A study of Mus musculus with 8 samples.

Results

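*Tbx2*, *Tbx3*, *Tbx4*, *Tbx5*, *Tbx15* and *Tbx18* are the T-box transcription factor genes of the limb mesenchyme examined here, and they were taken by symbol, as 6 of the 28001 features in the count tables. T-box proteins bind DNA through a shared domain and switch target genes on or off. *Tbx5* starts forelimb outgrowth with *Fgf10*, and its paralogue *Tbx4* does so mainly in the hindlimb. *Tbx2* and *Tbx3* are repressors best known at the anterior and posterior limb margins, while *Tbx15* and *Tbx18* are paralogues known from limb skeleton and dermis, *Tbx18* also as a marker of mural cells of blood vessels.

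Single-cell RNA sequencing was carried out on embryonic mouse forelimbs (C57BL/6J) in 8 libraries. Of these, 6 held sorted tdTomato+ cells of *Hic1*CreERT2/CreERT2;*Rosa26*LSLtdTomato/tdTomato embryos, with 1 library for each day from E11.5 to E14.5, 1 from the elbow region at E16.5 (E16.5 proximal: distal stylopod and proximal zeugopod) and 1 from the distal zeugopod and autopod (E16.5 distal). The other 2 libraries (whole limb 1 and 2) came from E11.5 forelimbs and are labelled as holding tdTomato+ and tdTomato- cells; the methods give these the same alleles and exclude blood and endothelial cells by antibody. CreERT2 stands under the control of the *Hic1* locus, tamoxifen (7.5 mg by gavage) was given to the dam at E10, and the sorted cells are therefore those that used the *Hic1* locus around that time and their progeny. Forelimbs of several embryos were pooled for each library, so that a sorted group is 1 pool and carries no measure of variation between embryos. Only the E11.5 sorted library and the 2 whole limb libraries could be compared with a test.

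After removal of barcodes with fewer than 3000 UMIs or more than 10% mitochondrial UMIs, 53085 of 57469 barcodes remained, of which 41939 were in the sorted libraries. The libraries held 32957305 to 236408650 UMIs, and the median kept cell held between 6788 UMIs at E13.5 and 18473 in E16.5 proximal. In the whole limb libraries *tdTomato* stood at 3.88 and 4.21 CPM (UMIs of a gene per 1000000 UMIs) and *Hic1* at 0.702 and 0.741 CPM, against 430 to 1410 and 23.7 to 38.0 CPM in the sorted libraries. *Prrx1*, a defining gene of limb mesenchyme, was present in every library (235 to 309 CPM sorted, 647 and 614 CPM in whole limb 1 and 2), and of 5 listed hindlimb genes *Pitx1*, *Hoxc9*, *Hoxc10* and *Hoxc11* stayed at or below 1.52, 1.03, 0.312 and 0.643 CPM, while *Isl1* reached 6.76 and 5.48 CPM in whole limb 1 and 2 and at most 1.61 CPM elsewhere. In the mesenchymal cells of whole limb 1 and 2, without myogenic-like and endothelial-like clusters, *Isl1* held 77 of its 347 and 76 of its 281 UMIs, and stood at 1.70 and 1.70 TMM-normalised CPM (CPM scaled by edgeR's trimmed mean of M-values) against 1.43 in the sorted E11.5 library (edgeR adjusted p = 0.472). E13.5 and whole limb 1 shared the most cell barcodes of any pair of libraries (48, or 0.878% of the smaller library), and E11.5 and E13.5 the largest share (33, or 1.04%). Whole limb 1 and 2 differed beyond sampling noise (chi-square per gene with a mean of 15.4 and a median of 1.72 over 15684 genes) and were used as separate samples.

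The 6 genes lie in 4 places of the GRCm38 genome. *Tbx3* (ENSMUSG00000018604) and *Tbx5* (ENSMUSG00000018263) are neighbours on the forward strand of chromosome 5, at 119670669 to 119684724 and 119832668 to 119885219, with 147943 bases and no protein-coding gene between them. *Tbx2* (ENSMUSG00000000093) and *Tbx4* (ENSMUSG00000000094) lie close together on the forward strand of chromosome 11, at 85832551 to 85841948 and 85886422 to 85916097, with 44473 bases and 1 protein-coding gene between them. *Tbx15* (ENSMUSG00000027868) lies alone on the forward strand of chromosome 3 (99240381 to 99354259) and *Tbx18* (ENSMUSG00000032419) on the reverse strand of chromosome 9 (87702800 to 87731260). The start of *Tbx3* overlaps the antisense gene *Tbx3os1* by 697 bases. Whether counting used the strand is not given in the sources used here, so reads from that overlap cannot be assigned to one of the 2 genes with certainty.

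Levels were calculated as CPM over the summed cells of a library outside clusters of epithelial-like cells, with exact Poisson 95% intervals that cover counting error only. Libraries were called different when their intervals did not overlap, which says nothing of variation between embryos. A lower summed level can mean fewer cells with a transcript or less RNA in each, and in the sums these cannot be told apart. All 6 genes were detected in all 8 libraries, but at levels that differed widely.

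*Tbx5*, the forelimb initiator, was most abundant in the early sorted libraries. Its level was 221 CPM at E11.5, 208 in E12.5 cells, 178 at E13.5, 70.9 in E14.5 cells, 23.9 in E16.5 proximal and 62.1 in E16.5 distal, and at 93.2 and 95.7 CPM in whole limb 1 and 2. The sorted libraries thus descended with stage, with the elbow region lowest, and only the 2 whole limb libraries had overlapping intervals. From E11.5 to E16.5 proximal the level of *Tbx5* differed 9.26-fold (8.92 to 9.60). This was the largest value of the 6 genes, but its interval lay within that of *Tbx4* (6.44 to 9.95). *Tbx4* was scarce in these forelimbs, with 6.19 CPM at E11.5, 2.04 in E12.5 cells, 1.96 at E13.5, 4.15 in E14.5 cells, 0.774 in E16.5 proximal, 4.98 in E16.5 distal, and 1.38 and 1.97 CPM in whole limb 1 and 2. Its highest level was in the E11.5 sorted cells and its lowest at the elbow, 7.999-fold apart (6.44 to 9.95), while E12.5, E13.5 and the whole limb libraries formed a run of overlapping intervals.

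*Tbx2* and *Tbx3* had the opposite distribution at E11.5, with the whole limb libraries highest. *Tbx2* stood at 16.3 and 18.2 CPM in whole limb 1 and 2, against 3.05 at E11.5, 3.96 in E12.5 cells, 2.93 at E13.5, 8.89 in E14.5 cells, 8.15 in E16.5 proximal and 8.45 CPM in E16.5 distal. Its levels fell into 3 sets, within which the ordered intervals overlapped: the whole limb libraries, the E14.5 and E16.5 sorted libraries, and the 3 earlier sorted libraries. *Tbx3* stood at 94.5 and 102 CPM in whole limb 1 and 2, and among sorted cells at 40.9 (E11.5), then 79.2 (E12.5), then 38.8 (E13.5) and 32.4 CPM (E14.5), with 28.5 CPM in each E16.5 segment. E12.5 was the highest sorted library, and E11.5 and E13.5, and likewise the 2 E16.5 segments, did not differ beyond counting error.

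*Tbx15* and *Tbx18* descended from E11.5 to E14.5, and *Tbx15* stood higher again in both E16.5 segments. *Tbx15* stood at 214 CPM at E11.5, 113 in E12.5 cells, 81.3 at E13.5, 38.3 in E14.5 cells, 47.2 in E16.5 proximal and 52.4 in E16.5 distal, with 50.7 and 52.5 CPM in whole limb 1 and 2. *Tbx18* stood at 194, 145, 131, 68.7, 35.3 and 54.5 CPM in the same sorted libraries, and at 93.0 and 102 CPM in whole limb 1 and 2. *Tbx15* was lowest at E14.5 and *Tbx18* at the elbow, E11.5 was highest for both, and the E11.5 level exceeded that of E16.5 proximal 4.54-fold for *Tbx15* and 5.4999-fold for *Tbx18*.

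**Figure D1:**
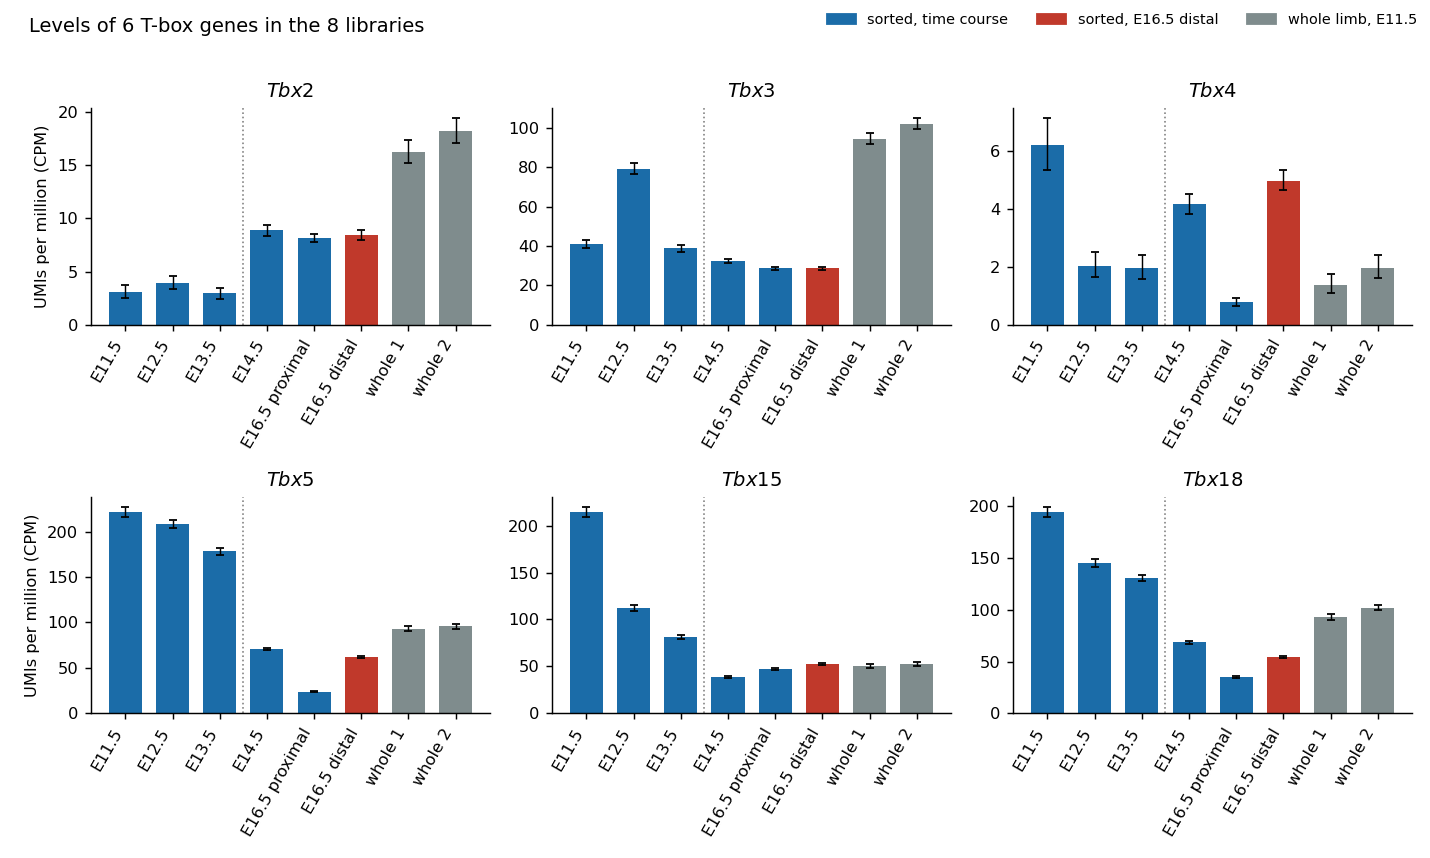
Level of each T-box gene in the 8 libraries (CPM on the vertical axis, 1 panel per gene, own scale), with exact Poisson 95% intervals for counting error as bars and a dotted line at the change from the v2 to the v3 kit. *Tbx5*, *Tbx15* and *Tbx18* were highest at E11.5 (221, 214 and 194 CPM), whereas *Tbx2* and *Tbx3* were highest in the whole limb libraries.

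The E11.5 comparison asked how *Hic1* lineage cells differed from the limb mesenchyme as a whole. Sums of mesenchymal cells were tested with edgeR's quasi-likelihood test, which gave all 6 T-box genes an adjusted p under 0.05, 4 higher and 2 lower in the sorted cells. This has to be read against the background, since 53.6% of the 15076 genes tested were called (27% higher, 26.6% lower). The median log2 fold change was 0.81 over the 6 genes and 0.02 over all genes. The test has 1 residual degree of freedom, and the lone sorted library was taken to vary like the whole limb libraries. No spread between sorted libraries was therefore measured. The p-values rest mainly on a spread pooled over genes, and little on each gene's own gap between the 2 whole limb libraries. The size of the p-values depended on the count filter. With no such filter the adjusted p of the 6 genes were 0.0141 to 0.0315 by the same edgeR test, with 4231 of 20174 genes called.

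*Tbx5* and *Tbx4*, the genes of limb initiation, were higher in the sorted cells, on the scale of TMM-normalised CPM used from here to the end of this comparison. *Tbx5* stood at 203 CPM in the sorted library and at 105 and 109 CPM in whole limb 1 and 2, a log2 fold change of 0.93 ± 0.09 (SE, edgeR adjusted p = 8.9e-22). *Tbx4* stood at 5.69 against 1.48 and 2.13 CPM (1.66 ± 0.20, edgeR adjusted p = 8.7e-15). Thus the gene known from the hindlimb had the larger fold change of this pair, from counts of only 67 and 95 UMIs in the whole limb libraries.

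The marginal repressors were lower in the sorted cells. *Tbx2* stood at 2.80 CPM against 17.1 and 19.96 CPM, a log2 fold change of -2.73 ± 0.18 (edgeR adjusted p = 1.8e-49). *Tbx3* stood at 37.6 against 106 and 116 CPM (-1.56 ± 0.10, edgeR adjusted p = 6.4e-49). For both genes the sorted value lay far outside the gap between the whole limb libraries.

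*Tbx15* rose most in log2 terms among the 4 higher genes, with 197 CPM in the sorted library against 56.7 and 59.5 CPM (1.76 ± 0.09, edgeR adjusted p = 1.4e-79). *Tbx18* changed least of the 6, with 178 against 104 and 116 CPM (0.69 ± 0.09, edgeR adjusted p = 2.2e-12). The order of *Tbx15* and *Tbx4* was not fixed. It turned in cells with a *Meis1* or *Meis2* UMI and no *Hoxa13* or *Hoxd13* UMI (*Tbx4* 1.41, *Tbx15* 1.35). Without whole limb replicate 2 it turned as well (1.90 and 1.79). For each of the 6 genes the sorted value lay outside the 2 whole limb values. The share of all genes for which this held was not worked out, so it adds no support.

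**Figure D2:**
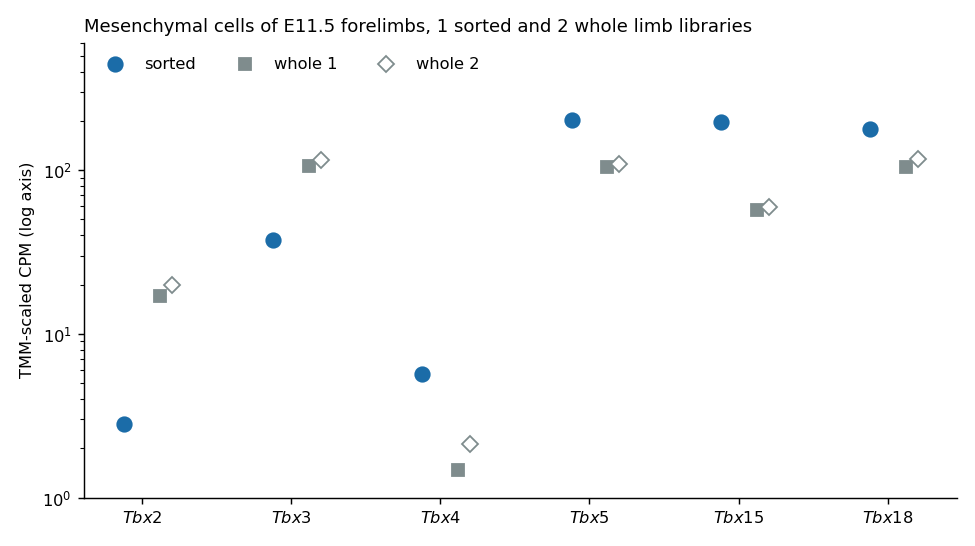
TMM-normalised CPM (log axis) of the 6 T-box genes in the E11.5 sorted library and in whole limb 1 and 2, with 1 point per library. *Tbx2* and *Tbx3* lie lower in the sorted library (2.80 and 37.6 CPM) than in either whole limb library, and the other 4 genes lie higher.

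Whether the makeup of the mesenchymal cells differed along with the sort was not tested. The whole limb libraries held anterior limb mesenchyme-like and distal, *Hoxd13*-rich clusters. Limb position names were given in the whole limb libraries only, so the missing anterior name in the sorted library shows no difference. Cell quality and blood RNA differed between the groups. The filters kept 74.2% of barcodes in the sorted library against 97.7% and 98.6% in whole limb 1 and 2, and 2961 of 3165 kept cells had at most 5% mitochondrial UMIs against 5422 of 5464 and 5657 of 5682. Erythroid markers summed to 0.413 CPM against 328 and 274 CPM (9 markers, 4 at 0 in the sorted library: *Hbb-bt*, *Hbb-bs*, *Hba-a1* and *Hba-a2*). With only cells of at most 5% mitochondrial UMIs all 6 T-box genes kept their call, and the part of erythroid RNA was not tested. When the test was limited to cells with a *Meis1* or *Meis2* UMI and no *Hoxa13* or *Hoxd13* UMI (920 sorted cells, 1519 and 1720 whole limb cells), all 6 genes stayed called, with *Tbx2* at -2.30 and *Tbx18* at 0.42 on the log2 scale, and 38.4% of genes were called. In chondrocyte-like cells alone (638, 562 and 1165 cells; 11.1% of genes called), *Tbx2* (-2.71), *Tbx3* (-1.5002), *Tbx5* (0.97) and *Tbx15* (1.21) kept their calls with edgeR adjusted p = 0.0223, 0.00727, 0.00667 and 0.00412. In these cells *Tbx4* (0.63, edgeR adjusted p = 0.264) and *Tbx18* (0.11, adjusted p = 0.614) did not pass, *Tbx18* standing at 164 CPM in the sorted library and at 136 and 143 CPM in whole limb 1 and 2 (here CPM without TMM scaling). This last comparison was chosen after the data were seen.

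Around the T-box genes, the list of limb bud signals and factors moved mostly downwards in the E11.5 sorted cells, with 19 of its 27 tested genes lower, 3 higher and a median log2 fold change of -0.84, against 26.6% of all genes lower, 27% higher and a median of 0.02. *Shh*, the posterior organiser signal, stood at 0.146 CPM in the sorted library and 3.62 and 3.81 CPM in whole limb 1 and 2 (-4.64 ± 0.40). *Pax1*, an anterior limb factor, stood at 1.72 against 33.9 and 42.0 CPM (-4.46 ± 0.18), and *Hand1* (-2.67) and *Sall4* (-2.64) followed. The 3 higher genes were *Fgf8* (1.78), *Bmp4* (0.80) and *Bmp7* (0.34). With myogenic-like and endothelial-like cells included and without TMM scaling, *Fgf8* stood at 3.49 CPM in the sorted library and at 2.38 and 3.31 CPM in whole limb 1 and 2 (110, 122 and 170 UMIs), so that the fold was smaller there. Of the other genes, *Fgf10*, the partner signal of *Tbx5*, was lower (6.82 against 16.4 and 16.3 CPM, -1.26 ± 0.16, edgeR adjusted p = 2.0e-14).

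A further list held 14 genes, other T-box family genes together with non-coding genes beside them such as *Tbx3os1* and *Tbx3os2*. Of these, 13 were in the tables and 8 were tested, with 1 higher (*Tbx6*, 1.82) and 4 lower, where 53.6% of all genes were called. The lower genes were *T* (-1.79), *Tbx3os2* (-1.67), *Tbx3os1* (-0.94) and *Mga* (-0.48). *T* and *Tbx3os2* had only 4 UMIs each in the sorted library. *Tbx3os1* moved in the direction of its overlapping neighbour *Tbx3*, with 3.35 CPM in the sorted and 6.23 and 6.65 CPM in whole limb 1 and 2. The hindlimb list had 2 of 5 genes lower (26.6% of all genes were), *Hoxc11* (-2.94) and *Hoxc9* (-2.75), both from fewer than 50 UMIs per library, and *Pitx1*, a regulator of *Tbx4* in the hindlimb, was not called (0.47, edgeR adjusted p = 0.349).

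For libraries that stood alone, a gene was counted as past 2-fold when its ratio of CPM + 1 was at least 2 in either direction and it reached 5 CPM in the higher library. These counts carry no test. Between whole limb 1 and 2, the only libraries of 1 group, none of the 6 genes was past 2-fold and 0.0844% of all genes were, and the widest gap among the 6 was that of *Tbx4* (ratio 1.42, 1.04 to 1.96).

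Across the sorted time course, 6 gene steps were past 2-fold. From E11.5 to E12.5 (3.49% of genes past 2-fold), *Tbx4* was 3.04-fold lower (2.36 to 3.95), *Tbx15* was 1.90-fold lower and *Tbx3* 1.94-fold higher, the last 2 just inside the limit. *Tbx3* was then 2.04-fold lower at E13.5 (1.93 to 2.17; 3.43% of genes), a step at which the dissociation enzymes also changed, so that the stage and the dissociation cannot be told apart. With cells thinned to 3000 UMIs this log2 ratio was -0.93, inside the limit. Thus *Tbx3* alone of the 6 had its sorted maximum at E12.5. At E11.5, E12.5 and E13.5, muscle fibre markers summed to 5.14, 24.4 and 6.19 CPM and endothelial markers to 6.22, 19.3 and 15.7 CPM. Myogenic markers stood at 6.86, 5.70 and 2.73 CPM. The part of such cells in the *Tbx3* differences was not tested.

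At E14.5 *Tbx5* was 2.52-fold lower (2.44 to 2.59), *Tbx15* 2.12-fold lower (2.04 to 2.22; -0.84 on the log2 scale and inside the limit under TMM scaling) and *Tbx2* 3.04-fold higher (2.54 to 3.66) than at E13.5, where 9.57% of genes were past 2-fold. *Tbx18*, 1.90-fold lower, was just inside. The kit changed between E13.5 and E14.5, so that the stage and the kit cannot be told apart at this step. The step from E14.5 to E16.5 proximal (10.7% of genes) also left out the autopod, so that here the stage and the limb part cannot be told apart. Markers of other cells moved at this step as well, from 7.57 to 92.6 CPM for muscle fibre, from 0.822 to 109.6 CPM for erythroid and from 19.1 to 50.3 CPM for glial markers, and their part in the T-box differences was not tested. *Tbx5* was 2.96-fold lower (2.86 to 3.07) and *Tbx18* 1.95-fold lower, just inside the limit (past it, at -1.03 on the log2 scale, with thinned cells), while *Tbx4* was 5.36-fold lower (4.48 to 6.45) but under the 5 CPM minimum.

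Some of these steps were seen in every cell class that both stages held, and some were not. The lower *Tbx3* at E13.5 was past 2-fold in neither class compared, at 1.38-fold in chondrocyte-like and 1.91-fold in mitotic-like cells (4.61% and 3.9% of genes). *Tbx4* at E12.5 was past 2-fold in 1 of 2 classes, and *Tbx2* and *Tbx15* at E14.5 in 2 of 3. *Tbx5* was past 2-fold lower in all 3 classes compared from E13.5 to E14.5 (2.71-fold to 3.05-fold; 12.3% of genes in chondrocyte-like, 9.08% in mitotic-like and 14.6% in tenocyte-like cells) and in all 5 classes compared from E14.5 to E16.5 proximal (2.45-fold to 3.54-fold), where 21.4% of genes in chondrocyte-like, 12.6% in dermal fibroblast-like, 18.3% in fibroblast-like, 14% in mitotic-like and 11% in tenocyte-like cells were past 2-fold. *Tbx3* was 4.02-fold higher at E12.5 than at E11.5 in chondrocyte-like cells (3.21 to 5.08; 4.91% of genes) and 2.49-fold higher in mitotic-like cells (5.48% of genes). *Tbx3* in tenocyte-like cells stood at 2.90 CPM (6 UMIs) at E13.5 and at 33.9 CPM at E14.5, a ratio of 11.7 (5.32 to 32.1; 14.6% of genes), while its level in chondrocyte-like cells was 60.5 and then 52.4 CPM.

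*Tbx2* took different courses between classes from E14.5 to E16.5 proximal. In tenocyte-like cells it was higher, at 11.8 and then 24.8 CPM (ratio 2.10, 1.72 to 2.59; 11% of genes). In dermal fibroblast-like cells it was lower, at 9.43 and then 1.44 CPM (6.57-fold, 4.46 to 9.97; 12.6% of genes). *Tbx18* in chondrocyte-like cells was 5.63-fold lower over the same step (31.6 and then 5.61 CPM; 21.4% of genes), a larger gap than the 1.40-fold of dermal fibroblast-like cells.

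Among the listed limb bud factors, *Meis2*, *Irx3* and *Meis1*, factors of the proximal and anterior limb, were past 2-fold lower at E12.5, with *Meis2* at 85.0 and then 28.3 CPM, and *Fgf8*, *Pax9* and *Grem1* were higher (of 21 genes tested, with 3.49% of all genes past 2-fold). At E14.5 *Irx5* (7.93 and then 42.7 CPM), *Irx3* and *Pax1* were higher and *Sall1* was lower (9.57% of all genes past 2-fold). At E16.5 proximal, where 10.7% of all genes were past 2-fold, 2 of 22 genes were higher, the cell cycle inhibitors *Cdkn1a* (24.0 and then 94.2 CPM) and *Cdkn1c*, and 6 were lower, among them *Pax1*, *Sall1* and *Hand2*. *Tbx3os1* followed *Tbx3* up at E12.5 (3.65 and then 20.4 CPM) and down at E13.5 (9.12 CPM), but stood at 23.3 CPM at E14.5 when *Tbx3* was at 32.4 CPM.

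At E16.5 the 2 segments differed in *Tbx5* and *Tbx4*, as a question of position along the limb. The segments were also counted with different Cell Ranger versions, so that the segment and the version cannot be told apart. *Tbx5* stood at 62.1 CPM in the distal and 23.9 CPM in the proximal segment, a ratio of 2.60 (2.51 to 2.69), and was the only one of the 6 past 2-fold, where 5.64% of genes were. *Tbx4* had a larger ratio of 6.43 (5.40 to 7.69), with 4.98 and 0.774 CPM, but lay just under the 5 CPM minimum. *Tbx18* had a ratio of 1.54 (1.496 to 1.593) and *Tbx15* of 1.11 (1.08 to 1.14). *Tbx2* and *Tbx3* had equal levels within counting error, with ratios of 1.04 (0.964 to 1.12) and 1.00 (0.962 to 1.04).

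The equal sums of *Tbx3* covered opposite differences between cell classes. In dermal fibroblast-like cells *Tbx3* was higher distally, at 89.5 against 29.5 CPM (ratio 3.04, 2.77 to 3.33; 10.2% of genes past 2-fold in that class). In joint-like cells it was lower distally, at 2.88 against 42.9 CPM, or 14.9-fold (10.5 to 21.7; 13.5% of genes). The joint-like class was 1 cluster in each segment. It was led by *Tnn*, *Fam180a* and *Fmod* proximally (378 cells) and by *Btc*, *Gdf5* and *Foxq1* distally (788 cells). Whether the clusters hold like cells was not tested. Chondrocyte-like (3.90 against 19.2 CPM), osteogenic-like (9.76 against 42.3 CPM), fibroblast-like (8.54 against 28.0 CPM) and tenocyte-like cells (12.7 against 27.9 CPM) were also past 2-fold lower distally. Of the 8 classes compared, *Tbx3* was therefore past 2-fold lower in 5 and higher in 1, with pericyte-like and mitotic-like cells between. The backgrounds of the other classes were 20.5% of genes in chondrocyte-like, 12.5% in osteogenic-like, 13.7% in fibroblast-like, 6.17% in tenocyte-like, 5.23% in pericyte-like and 10.3% in mitotic-like cells.

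*Tbx4* and *Tbx5* had 1 direction in every class, as CPM without TMM scaling. *Tbx4* was higher distally, with an interval above 1, in 8 of 8 classes, from a ratio of 2.20 in joint-like cells (1.44 to 3.47) to 23.2 in dermal fibroblast-like cells (3.73 to 959, from 1 UMI proximally). Its most abundant class was the distal chondrocyte-like cells, with 14.5 CPM against 1.89 CPM at the elbow (ratio 7.67, 4.93 to 12.4; 20.5% of genes). *Tbx5* was also higher distally in 8 of 8 classes, from 1.18 in joint-like (1.04 to 1.34) to 3.72 in dermal fibroblast-like cells (3.39 to 4.10), and past 2-fold in 3. The median log2 ratio of all genes also lay above 0, from 0.026 in tenocyte-like to 0.183 in chondrocyte-like cells. Scaled class ratios and the share of all genes with intervals above 1 were not worked out, which limits the smallest ratios most.

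*Tbx2* differed most in joint-like cells, at 1.89 CPM distally and 9.65 CPM proximally (5.10-fold lower, 3.14 to 8.55), and in fibroblast-like cells (2.52 and 8.48 CPM; 13.7% of genes). *Tbx2* leaned the other way, with intervals above 1, in chondrocyte-like (2.02 and 0.833 CPM, ratio 2.42, 1.04 to 5.82), mitotic-like (9.62 and 5.90 CPM, ratio 1.63, 1.31 to 2.03) and tenocyte-like cells (31.9 and 24.8 CPM, ratio 1.29, 1.10 to 1.505). *Tbx15* was higher in distal than proximal joint-like cells (75.7 and 37.0 CPM, ratio 2.05) and lower in distal dermal fibroblast-like cells (46.6 and 76.9 CPM, ratio 0.606). *Tbx18* was past 2-fold in no class, with ratios from 0.698 to 1.94. The joint-like values of *Tbx2* and *Tbx15* compare the clusters with different leading genes named above.

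**Figure D3:**
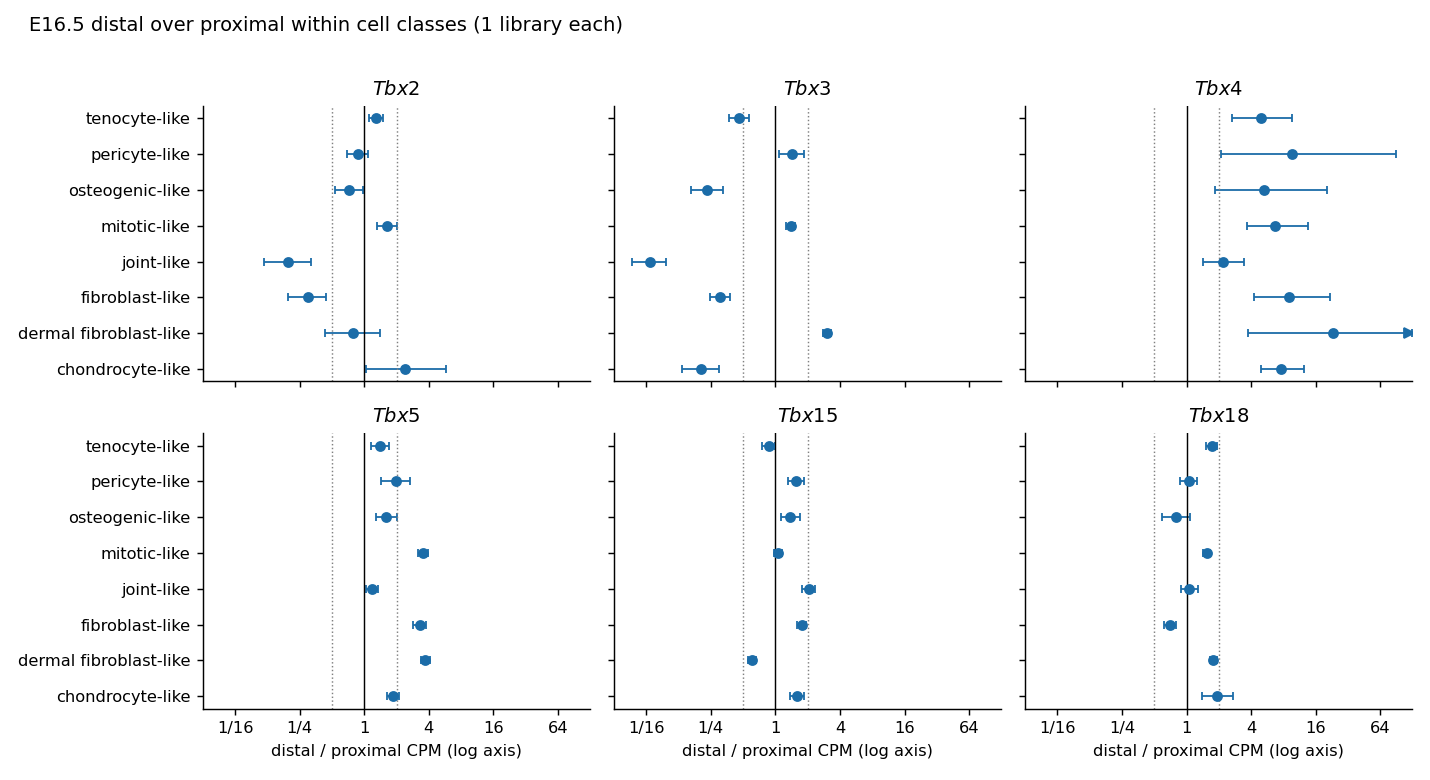
Ratio of each T-box gene in E16.5 distal over E16.5 proximal (log axis) in 8 cell classes, with points for the ratio, bars for its 95% counting interval, dotted lines at 2-fold and an arrow where an interval runs past the axis. *Tbx4* and *Tbx5* lie above 1 in all 8 classes, whereas *Tbx3* runs from 14.9-fold lower in joint-like to 3.04-fold higher in dermal fibroblast-like cells.

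The surrounding factors that differed between the segments were 7 of 21 listed genes past 2-fold higher distally (5.64% of all genes were past 2-fold in either direction), *Pax1* (13.7 and 2.93 CPM), *Sall1*, *Bmp4*, *Ptch1*, *Gli3*, *Hand2* and *Irx5*. The proximal factors *Meis2* (8.26 and 36.3 CPM) and *Meis1* (4.12 and 13.2 CPM) were lower distally. Markers of other cells also differed: muscle fibre markers summed to 92.6 CPM in E16.5 proximal and 18.5 CPM in E16.5 distal (10 markers, none at 0), glial markers to 50.3 and 17.8 CPM (8 markers, none at 0) and erythroid markers to 109.6 and 75.7 CPM (9 markers, 1 and 2 at 0). Epithelial-like cells, left out of these sums, were 8.46% of the proximal and 0.770% of the distal cells. Their part in the differences was not tested beyond the within-class values above.

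Cell classes were formed by clustering each library on its own, without any T-box gene, and naming clusters from marker lists. Of 105 clusters 55 were named, and unnamed clusters held 29.1% (E16.5 proximal) to 63.9% (E11.5) of cells. The 6 genes stood past 2-fold from the other cells of their library in 73 of 234 combinations of gene, class and library (31.2%; 22 higher and 51 lower), here without the 5 CPM minimum, where 9.15% of values did over all genes that reached that minimum. In the 5 time course libraries alone the share was 15.1% of 126 values, and it was 7.29% of 96 values when these 5 were clustered together. The 9.15% covers all 8 libraries, each clustered on its own, and no share over all genes was worked out for these 2 sets of values. Over the 72 values that both clusterings held, 8 and 6 were past 2-fold. The 51 lower values included endothelial-like or myogenic-like cells of the whole limb libraries for each of the 6 genes, and these were all 4 of *Tbx15*. The share among mesenchymal classes alone was not worked out.

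*Tbx5* was present in every mesenchymal class, and lowest at E16.5 in the pericyte-like cells. In E16.5 proximal its highest class was joint-like (51.4 CPM) and its lowest pericyte-like (10.1 CPM), and in E16.5 distal it reached 97.8 CPM in dermal fibroblast-like and 19.7 CPM in pericyte-like cells. At E12.5 and E13.5 chondrocyte-like cells held 330 and 292 CPM, above the 173 and 136 CPM of unnamed clusters. Myogenic-like cells of the whole limb libraries, a lineage that enters the limb from the somites, held 9.27 and 11.03 CPM.

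*Tbx4* was highest in chondrocyte-like cells in most libraries. Chondrocyte-like cells held 4.51 CPM at E12.5, 3.88 at E13.5, 14.5 in E16.5 distal, and 5.09 and 5.15 CPM in whole limb 1 and 2, in each the highest of the named classes. At the elbow the joint-like cells were highest (3.86 CPM), and at E14.5 an unnamed cluster led by *Sned1*, *Hlx* and *Cdh4* (12.2 CPM, 8.76 to 16.4). Dermal fibroblast-like cells held at most 1.15 CPM in any library.

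*Tbx2* was set apart by tendon, bone and vessel-associated classes. At E16.5 it stood at 28.4 and 24.7 CPM in pericyte-like, 24.8 and 31.9 CPM in tenocyte-like and 26.9 and 19.3 CPM in osteogenic-like cells of the proximal and distal segment. In chondrocyte-like cells it stood at 0.833 and 2.02 CPM and in dermal fibroblast-like cells at 1.44 and 1.13 CPM. The difference between the high and the low classes was more than 9-fold in both segments, and chondrocyte-like cells were past 2-fold lower than other cells in 7 of 8 libraries, E13.5 being the exception (2.58% to 22.3% of genes in the 8 comparisons). In whole limb 2 this turned at Leiden resolution 0.5, where the log2 ratio was 0.19 in place of -1.49. At E11.5 and E12.5 the chondrocyte-like values rested on only 5 and 3 UMIs (1.11 and 0.588 CPM). The 5 CPM minimum, which the shares of genes used, was not set for these calls.

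*Tbx3* differed widely between clusters of the E11.5 limb, and its highest levels lay in unnamed ones. In the sorted library it stood at 102 CPM (92.1 to 112) in a cluster led by *Meis2*, *Gdnf* and *En1* and at 97.4 CPM in one led by *Msx1*, *Irx3* and *Mt1*, but at 5.71 CPM (3.73 to 8.37) in one led by *Ntrk2*, *Egr4* and *Tcerg1l*. In whole limb 1 and 2 it was highest in clusters that shared the leading gene *Cntfr* (285 and 270 CPM), where *Tbx2* was highest too (43.5 and 46.3 CPM). Anterior limb mesenchyme-like cells held 169 and 184 CPM of *Tbx3* and 29.1 and 35.2 CPM of *Tbx2*, above the 54.2 and 54.5 CPM and 6.88 and 6.71 CPM of chondrocyte-like cells. At Leiden resolution 0.5, chondrocyte-like cells of whole limb 2 stood above the other cells in both genes (log2 ratio 0.72 for *Tbx3* and 0.19 for *Tbx2*).

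Within their libraries, the named classes with most *Tbx15* were chondrocyte-like cells at E11.5 (263 CPM), E12.5 (128.1 CPM) and in whole limb 1 and 2 (113 and 97.7 CPM), dermal fibroblast-like cells at the elbow (76.9 CPM) and joint-like cells distally (75.7 CPM). The only other named class at E11.5 and E12.5 was mitotic-like (241 and 109 CPM). At E12.5 an unnamed cluster led by *Pax9*, *Tfap2a* and *Aldh1a2* stood higher than either class (216 CPM, 199 to 235). *Tbx15* was the most even of the 6, past 2-fold in 6 of 39 combinations of class and library, of which 4 were endothelial-like or myogenic-like. *Tbx18* was low in cartilage from E14.5 on, with 31.6 CPM at E14.5 and 5.61 and 10.9 CPM in the proximal and distal chondrocyte-like cells. In fibrogenic progenitor-like cells of whole limb 1 and 2 it stood at 223 and 188 CPM. An unnamed cluster of whole limb 2 led by *Cntfr*, *Lum* and *Dlk1* stood higher, at 214 CPM (200 to 228). In the sorted libraries its highest cluster was unnamed, except at the elbow, where it was dermal fibroblast-like (52.6 CPM). At E13.5 the highest cluster, led by *Ppp1r14c*, *Hoxd13* and *Gng4*, stood at 268 CPM. In pericyte-like cells, for which *Tbx18* is a known marker, it stood at 42.5 and 44.4 CPM, where the summed E16.5 segments stood at 35.3 and 54.5 CPM.

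**Figure D4:**
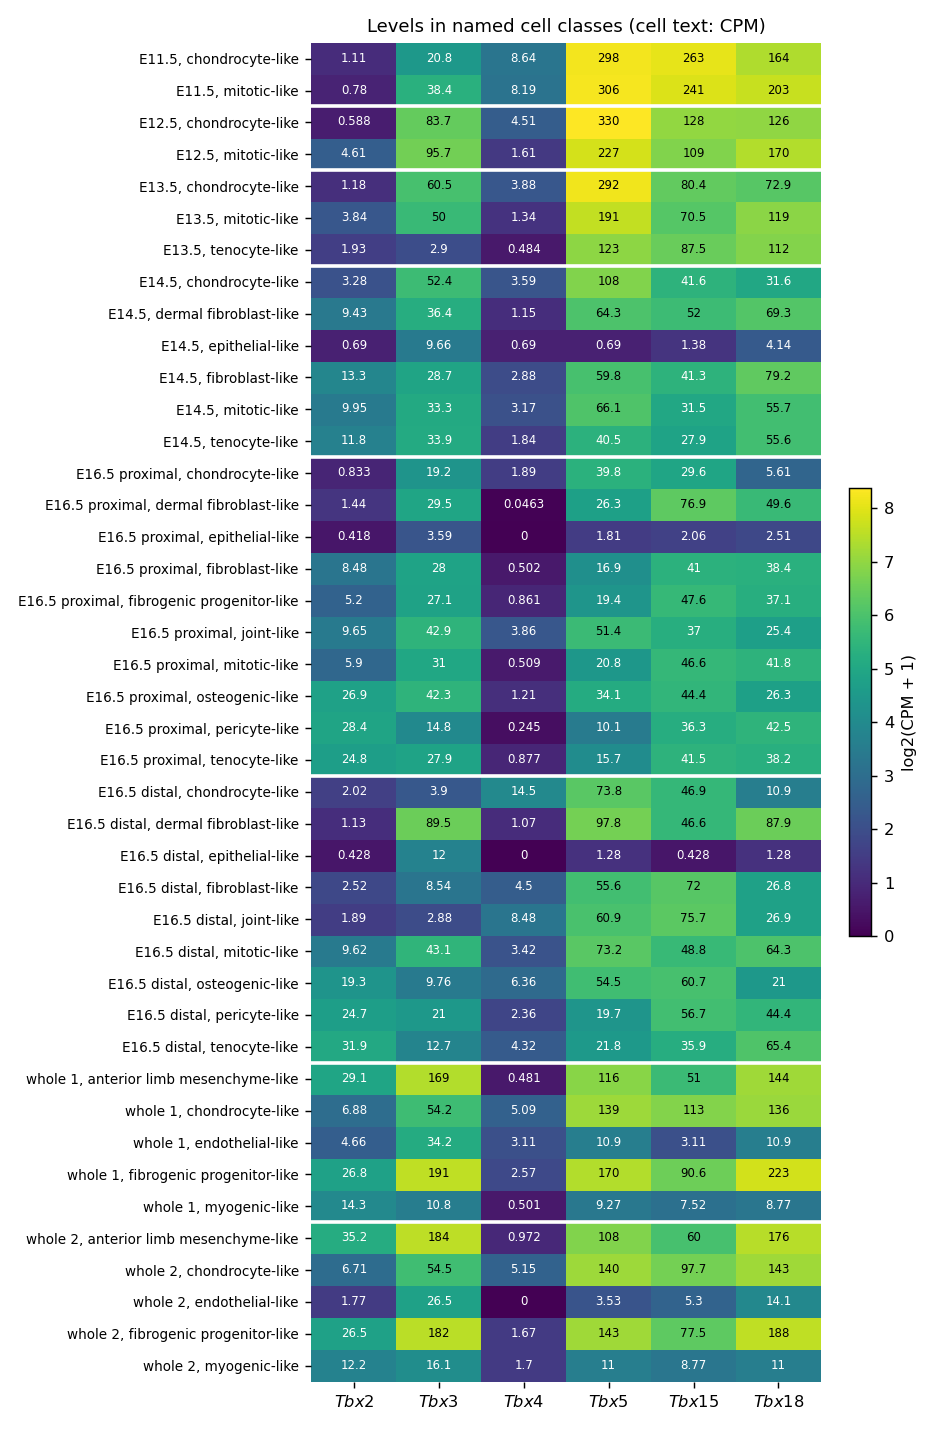
Heat map of the 6 T-box genes by named cell class and library, with colour for log2(CPM + 1) and the CPM written in each cell. *Tbx2* stands out in E16.5 pericyte-like, tenocyte-like and osteogenic-like cells (19.3 to 31.9 CPM), and *Tbx4* is low throughout, with its maximum of 14.5 CPM in E16.5 distal chondrocyte-like cells.

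Levels summed over cells hide how many cells contribute, and cells were therefore thinned to 3000 UMIs each. A UMI of *Tbx5* was found in 46.2% of E11.5 sorted cells (44.4% to 47.9%, exact binomial 95% interval), 43.8% of E12.5, 39.5% of E13.5 and 19.2% of E14.5 cells, 6.78% in E16.5 proximal and 16.3% in E16.5 distal. *Tbx15* went from 45.9% at E11.5 to 10.4% at E14.5, and *Tbx18* from 33.1% at E11.5 to 9.31% in E16.5 proximal. The shares thus followed the order of the summed levels. Epithelial-like cells of E16.5 proximal (940 cells) had *Tbx3* in 1.06%, *Tbx18* in 0.957%, *Tbx5* in 0.532% and *Tbx15* in 0.213% of cells, and *Tbx2* and *Tbx4* in none. Those of E14.5 and E16.5 distal (65 cells each) had only *Tbx3*, in 3.08% of cells.

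*Tbx3* was detected in 8.69% of E11.5 sorted and 15.3% of E12.5 cells, and in 21.8% and 22.2% of whole limb cells. *Tbx4* was detected in 0.216% (E16.5 proximal) to 1.74% (E11.5) of cells and *Tbx2* in 0.600% (E11.5) to 2.63% (E16.5 proximal) of sorted and 4.52% and 4.75% of whole limb cells. For reference, myogenic-like cells of whole limb 1 and 2 had *Tbx2* in 3.86% and 3.09% of cells, *Tbx3* in 3.86% and 5.84%, *Tbx5* in 0.643% and 3.09%, *Tbx15* in 1.93% and 2.06% and *Tbx18* in 0.965% and 2.75% (311 and 291 cells, median 12928 and 11947 UMIs before thinning). Endothelial-like cells (65 and 56 cells, median 9140 and 9235 UMIs) had *Tbx2* in 1 cell of each library, *Tbx3* in 12.3% and 8.93%, *Tbx5* in 6.15% and 1.79%, *Tbx18* in 4.62% and 5.36%, and *Tbx4* and *Tbx15* in none. The whole limb shares of *Tbx3*, *Tbx5*, *Tbx15* and *Tbx18* stood above those of both lineages. By summed counts *Tbx2* in myogenic-like cells reached 86.9% and 65.1% of its level in the other cells, so these cells give no background for it, and no lineage of the sorted E11.5 library served as one. The share of *Tbx4* (0.403% and 0.563% of whole limb cells, against 0.322% and 0.344% of myogenic-like cells) was not told apart from background.

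Whether cells held several T-box genes together was described as the number of thinned cells with both genes over the number that independence within the library would give. *Tbx2* and *Tbx3* were found together in 115 and 137 cells of whole limb 1 and 2 where 53.9 and 59.9 would be given, ratios of 2.13 and 2.29, and above 1 in all 8 libraries (1.14 in E16.5 proximal to 3.63 at E11.5, the last from 6 cells). *Tbx2* and *Tbx15* were together less often in whole limb 1 (ratio 0.248, 9 cells for 36.3) and whole limb 2 (0.409, 17 cells for 41.6). The sorted libraries also had ratios under 1, from 0.602 at E13.5 to 0.908 in E16.5 proximal. These rested on few cells, such as 6 for 8.72 at E11.5 and 29 for 31.95 in E16.5 proximal, and were not told apart from independence. *Tbx3* and *Tbx18* had ratios of 1.16 to 1.82, and *Tbx5* and *Tbx15* of 1.01 to 1.31. Cells of 1 library are not replicates, and the ratios include differences of class and position between cells.

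**Figure D5:**
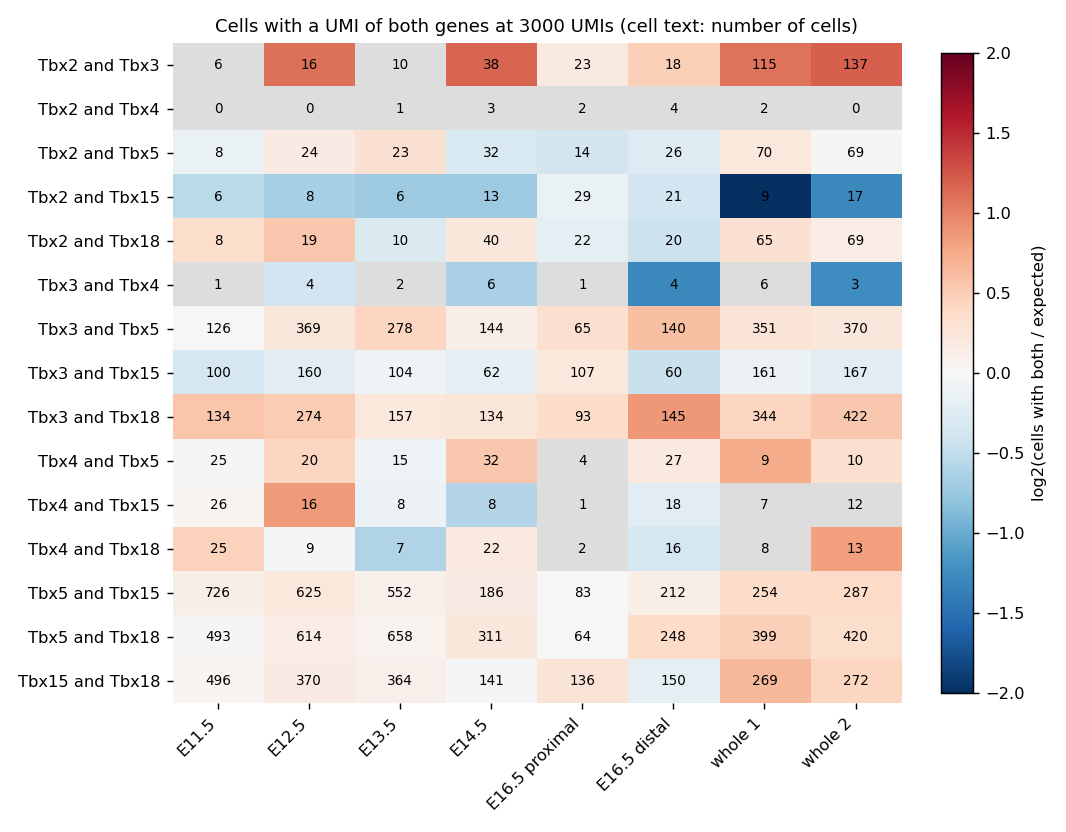
Cells holding a UMI of both genes over the number given by independence, for the 15 pairs of T-box genes in 8 libraries after thinning to 3000 UMIs, with the number of cells written in each field and grey where fewer than 5 cells would be given. *Tbx2* with *Tbx3* is above 1 in all shown fields (115 and 137 cells in the whole limb libraries). *Tbx2* with *Tbx15* is below 1, in the sorted libraries from at most 29 cells.

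Across the 105 cluster sums, centred within each library, *Tbx5* and *Tbx15* had the most similar course of any 2 of the 6 genes (Pearson's r = 0.84), followed by *Tbx15* and *Tbx18* (0.70), *Tbx5* and *Tbx18* (0.67), *Tbx2* and *Tbx18* (0.52), and *Tbx3* with *Tbx18* and with *Tbx2* (both 0.47). Without the epithelial-like clusters (101 sums) the first 3 values were 0.73, 0.54 and 0.49. *Tbx2* and *Tbx4*, which share a stretch of chromosome 11, had an r of 0.00, and the adjacent genes *Tbx3* and *Tbx5* one of 0.38. These sums share libraries, depth and clustering, and no test was made.

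Of 12375 genes compared in the same way, *Meis2* (0.68) and *Meis1* (0.67), markers of proximal limb, and *Pcdh10* were most like *Tbx3*. *Bcas3* (0.77), *Olfml3* and *Zfhx3* were most like *Tbx2*. *Tsc22d1* (0.72), *Chkb* and *Fcho2* were most like *Tbx4*. *Dnm1* (0.89), *Fgfr1*, a receptor for FGF signals (0.87), and *Scarf2* were most like *Tbx5*, *Ddr2*, a collagen receptor (0.88), *Tns1* and *Dnm1* were most like *Tbx15*, and *Pcdh18* (0.81), *S1pr3* and *Col3a1*, a fibrillar collagen (0.80), were most like *Tbx18*. Without the epithelial-like clusters the leading 3 held another gene for *Tbx2* (*Zfp804a*), *Tbx3* (*Rarres1*), *Tbx4* (*Slc27a1*, then first), *Tbx5* and *Tbx15* (*Igsf3* for both). Without centring within libraries, r was 0.08 for *Col3a1* with *Tbx18* and 0.22 for *Olfml3* with *Tbx2*.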

How the data were processed

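Per the labels and the study's methods, tdTomato+ cells were sorted from pooled forelimbs and sequenced with 10x 3′ chemistry (v2 kit to E13.5, v3 from E14.5), and the authors aligned reads to mm10 with Cell Ranger (per the file headers version 3.0.2 for 5 libraries and 6.0.1 for E16.5 distal, with none in the headers of the whole limb libraries; the study's reporting summary names 1 version, which is neither of these). The deposited values are raw UMI counts per gene and barcode, over 28001 features that include 3 added sequences. No replicates were pooled in these tables.

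From these counts, cells with at least 3000 UMIs and at most 10% mitochondrial UMIs were kept. Each library was clustered on its own with scanpy 1.11.5 (2000 variable genes, 50 principal components, 25 neighbours, Leiden resolution 1), leaving out 818 genes, among them all T-box and Hox genes, Hic1, the transgenes, and mitochondrial, haemoglobin and sex-linked genes. Clusters were named from marker lists of 21 classes. The refinements of naming (muscle fibre not used as a name, limb position names only in the whole limb libraries, at least 2 own markers among the top 10 genes for a class that did not score best) were chosen after the clusters were seen. Where no marker of a class was among the top 10 genes, at least 66.7% of its markers had to stand higher. Doublets were scored with Scrublet, which called 2 to 15 cells per library and so had not worked, and no cell was removed as a doublet in the reported values.

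Summed counts of the E11.5 libraries were tested with edgeR 4.0.16 (TMM, filterByExpr, quasi-likelihood test, Benjamini-Hochberg threshold 0.05). DESeq2 1.42.0 and limma 3.58.1 were alternatives. The method was tested on simulated data. Single libraries were compared by ratios of CPM + 1, with exact Poisson, conditional binomial and Clopper-Pearson 95% intervals, which cover counting error only. Named genes were the 6 members, the 3 genes with the highest correlation to each, and at most 4 genes per list and comparison past the threshold, with a few further list genes named as examples after their values were seen. The members and the gene lists were chosen with earlier results of these data known. Positions came from GRCm38 (GENCODE M21).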

Additional observations from a re-analysis of the deposited data

Results flagged for a closer look

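Opposite directions under 1 contrast, each past 2-fold and with counting intervals on either side of no change, were found for *Tbx2* and *Tbx3*. Without the 2-fold limit, *Tbx5*, *Tbx15* and *Tbx18* also had classes with intervals on either side of no change. From E14.5 to E16.5 proximal, *Tbx2* had a log2 ratio of CPM + 1 of 1.01 in tenocyte-like cells and of -2.10 in dermal fibroblast-like cells. Between E16.5 distal and proximal, *Tbx3* had a log2 ratio of 1.57 in dermal fibroblast-like cells and of -3.50 in joint-like cells. Each class was 1 library at each end, so the difference between classes was not tested. The joint-like clusters of the E16.5 segments had different leading genes.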

How the results depend on the processing

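All 6 T-box genes kept their call and direction at E11.5 with DESeq2, limma-voom, other size factors, no count filter (adjusted p 0.0141 to 0.0315; 4231 genes called, against 8076, 4896 with DESeq2 and 5039 in proximal cells), all cells, a 5% mitochondrial limit, thinning to 3000 UMIs, proximal cells only and the highest doublet scores removed, and 4 did so in chondrocyte-like cells alone. Leaving out whole limb replicate 1 or 2 leaves values with no test: *Tbx2* -2.80 to -2.59, *Tbx3* -1.61 to -1.49, *Tbx4* 1.41 to 1.90, *Tbx5* 0.91 to 0.96, *Tbx15* 1.73 to 1.79 and *Tbx18* 0.62 to 0.77. No paired analysis was possible because the sorted library carries no replicate number. Gene steps past 2-fold numbered 6, and 4 (at least 20 CPM) to 7 (no minimum level, or all cells) in the alternatives. Between the E16.5 segments the count was 1, and 2 with no minimum level, TMM-scaled totals, thinning to 3000 UMIs or the highest doublet scores removed, where *Tbx4* joined *Tbx5*. The share of class values past 2-fold was 31.2% over 8 libraries with endothelial-like and myogenic-like cells counted, 15.1% in the 5 time course libraries and 7.29% when those were clustered together. Reversed were *Tbx3* in E11.5 chondrocyte-like cells taken by 3 markers (0.045 on the log2 scale, as the following), *Tbx2* in E11.5 mitotic-like cells (0.58 at Leiden resolution 0.5, 0.60 clustered together, 0.45 by 3 markers) and, in whole limb 2 chondrocyte-like cells at resolution 0.5, *Tbx2* (0.19) and *Tbx3* (0.72); the cause was not tested. TMM scaling moved the median of all genes by over 0.1 on the log2 scale in the steps to E14.5 and E16.5 and between segments; *Tbx15* at E14.5 was then at -0.84, inside 2-fold. Removal of Scrublet's own calls was not run; the removal by score and the chondrocyte-like comparison were chosen after seeing the data. Depth limits *Tbx2* and *Tbx4*, which few cells showed.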

Other observations

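In myogenic-like cells of the whole limb libraries *Tbx2* stood at 14.3 and 12.2 CPM, or 86.9% and 65.1% of its level in the other cells, whereas *Tbx3* stood at 10.6% and 14.9%, *Tbx5* at 9.25% and 10.8%, *Tbx15* at 13.8% and 15.7% and *Tbx18* at 8.76% and 10.1%. *Tbx4* stood at 34.4% and 85.3%, from 2 and 6 UMIs. The difference between the genes was not tested.

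*Bcas3*, whose course over clusters was most like that of *Tbx2* (r = 0.77), ends 6492 bases before the start of *Tbx2* on the same strand of chromosome 11. Whether reads are shared between them was not tested.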
